A study of Arabidopsis thaliana with 9 samples.

Results

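The long sRNAs described here are the small RNAs of 23, 24 or 25 nt that were listed for 3 S-locus sRNA precursors of Arabidopsis halleri expressed in A. thaliana. They were chosen by length alone, and listings with the same position, strand and sequence were counted as 1 sRNA. Of the 272 distinct sRNAs in the 3 tables, 91 met this rule (33.5%). The other 181 sRNAs measured 18 to 22 nt and are called the shorter sRNAs. By length, the long set divided into 39 sRNAs (23 nt), 36 (24 nt) and 16 (25 nt).

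The libraries of this series came from immature floral buds of transgenic plants of the C24 ecotype, each line carrying Ah04mir1887, Ah20mirS3 or Ah20mirS2. The paper describes an sRNA database that adds earlier sRNAs to those of these libraries and draws on both A. thaliana and A. halleri. Whether any such earlier sRNAs are among those listed here is not stated in the sources used here. The authors' methods give the Ah04mir1887 and Ah20mirS3 transgenes as homozygous and do not mention Ah20mirS2. The Ah20mirS3 line also holds the neighbouring Ah20mir1887 precursor. For each precursor, sRNAs were sequenced from the input fraction and from material immunoprecipitated with an antibody against AGO1 or against AGO4, with 1 library per fraction and 9 libraries in all. The tables name the library of each sRNA only by a code, 3 codes per precursor, which the sources used here do not tie to a fraction, so values per code are given under the code itself. The tables hold no read counts, so depth is unknown, every sRNA counts once whether rare or abundant, and abundance and library depth both bear on whether an sRNA is listed at all.

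In plants, Dicer-like enzymes release small RNAs from double-stranded RNA, and each enzyme has its own preferred product length. DCL1 mostly makes the shorter miRNA class from hairpins with imperfect stems, while DCL3 makes longer small RNAs that are best known for guiding RNA-directed DNA methylation. The first base of a small RNA is one of the features by which Argonaute proteins select it, AGO1 favouring a 5' U and AGO4 a 5' A. At the S-locus of self-incompatible Brassicaceae, hairpin precursors carried by dominant alleles yield sRNAs that repress the pollen determinant gene SCR of recessive alleles.

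The precursor sequences are shown first, because the long sRNAs and their starting points are read along them. They were rebuilt from overlapping listed sRNAs and read 5' to 3' with T standing for U, and capitals mark each base at which at least 1 long sRNA begins. In the sequence of the S-allele Ah04, Ah04mir1887 occupies 13487 to 13603 (plus strand). In that of Ah20, Ah20mirS3 occupies 10201 to 10370 (plus strand) and Ah20mirS2 2191 to 2322 (minus strand). The sRNAs of Ah20mirS3 and Ah20mirS2 left 30 nt and 8 nt in the middle uncovered, so these precursors are printed in parts.
Ah04mir1887, positions 1 to 117: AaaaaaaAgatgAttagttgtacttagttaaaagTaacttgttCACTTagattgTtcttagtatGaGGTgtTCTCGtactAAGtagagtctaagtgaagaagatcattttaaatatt
Ah20mirS3, positions 1 to 74: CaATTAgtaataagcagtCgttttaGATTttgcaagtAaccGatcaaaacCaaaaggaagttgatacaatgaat
Ah20mirS3, positions 105 to 170: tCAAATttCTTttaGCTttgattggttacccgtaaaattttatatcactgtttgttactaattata
Ah20mirS2, positions 1 to 56: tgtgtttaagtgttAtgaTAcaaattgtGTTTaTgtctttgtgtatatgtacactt
Ah20mirS2, positions 65 to 132: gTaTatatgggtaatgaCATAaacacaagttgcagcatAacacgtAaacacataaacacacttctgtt
Where listed sRNAs of a precursor overlapped, 0 bases differed between them. The long sRNAs began at 22 distinct bases of Ah04mir1887, 24 of Ah20mirS3 and 16 of Ah20mirS2.

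The long sRNAs listed under all 3 codes of their precursor are shown next. With them are those from the 5' end of each precursor that carried the most long sRNAs, the first by position where ends tied. They show how a long sRNA relates to a shorter one from the same base. Capitals mark the 3' bases by which it outreaches the longest shorter sRNA from that base. Coordinates are those of the S-allele, and where several sRNAs so chosen began at a base the longest of them is printed, except that for Ah20mirS2 the 25-nt sRNA is printed beside the 24-nt sRNA that all 3 codes listed.
Ah04mir1887, 13560 to 13584: tcgtactaagtagagtctaagtGAA
Ah04mir1887, 13531 to 13555: acttagattgttcttagtatgaGGT
Ah20mirS3, 10228 to 10251: ttttgcaagtaaccgatcaaAACC
Ah20mirS3, 10242 to 10266: gatcaaaaccaaaaggaagttgATA
Ah20mirS3, 10315 to 10338: tttagctttgattggttacccgTA
Ah20mirS3, 10320 to 10343: ctttgattggttacccgtaaaaTT
Ah20mirS2, 2270 to 2293: tttatgtctttgtgtatatgtaCA
Ah20mirS2, 2269 to 2292: ttatgtctttgtgtatatgtacAC
Ah20mirS2, 2268 to 2292: ttatgtctttgtgtatatgtacACT
Ah20mirS2, 2268 to 2291: tatgtctttgtgtatatgtacaCT
At position 13560 of Ah04mir1887, all 3 long sRNAs, of 23, 24 and 25 nt, were listed under AVBR-5, AVBR-6 and AVBR-14. At position 13531 the 3 long sRNAs were listed under AVBR-6 and AVBR-14. In Ah20mirS3, both long sRNAs that begin at 10228 were listed under AVBR-8, AVBR-9 and AVBR-15, whereas of the 3 that begin at 10242 only the 24-nt sRNA was, the 23-nt sRNA being listed under AVBR-9 and AVBR-15 and the 25-nt sRNA under AVBR-9. In Ah20mirS2, the 3 sRNAs of 24 nt shown begin at neighbouring bases of the 5' arm and were listed under AVBR-2, AVBR-3 and AVBR-13. The 25-nt sRNA from 2292 was listed under AVBR-3 and AVBR-13.

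Another set had 5' ends more than 1 nt from that of any shorter sRNA of the same precursor. It held 6 long sRNAs in Ah04mir1887, 3 in Ah20mirS3 and 2 in Ah20mirS2, and not all of the first 2 groups are printed here. Capitals mark the first base, since no shorter sRNA begins there.
Ah04mir1887, 13541 to 13563: Ttcttagtatgaggtgttctcgt
Ah04mir1887, 13499 to 13522: Attagttgtacttagttaaaagta
Ah04mir1887, 13551 to 13574: Gaggtgttctcgtactaagtagag
Ah20mirS3, 10205 to 10229: Tagtaataagcagtcgttttagatt
Ah20mirS3, 10226 to 10250: Gattttgcaagtaaccgatcaaaac
Ah20mirS2, 2285 to 2308: Atgatacaaattgtgtttatgtct
Ah20mirS2, 2267 to 2289: Tgtctttgtgtatatgtacactt
In Ah04mir1887, the 5' end at 13541 was the farthest, 5 nt from the nearest 5' end of a shorter sRNA, and those at 13499 and 13551 were 4 nt away. The sRNAs from 13541 and 13499 were listed under AVBR-14 only, and the pair from 13551, of 23 and 24 nt, under AVBR-6 only. In Ah20mirS3 and Ah20mirS2 no long sRNA began more than 2 nt from a shorter one. The Ah20mirS3 sRNA from 10226 was the only one of those printed here that was listed under 2 codes, AVBR-9 and AVBR-15.

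The long sRNAs made up a similar part of the list in each precursor. They were 33 of 95 distinct sRNAs in Ah04mir1887 (34.7%, 95% Wilson interval 25.9 to 44.7%), 36 of 109 in Ah20mirS3 (33.0%, 24.9 to 42.3%) and 22 of 68 in Ah20mirS2 (32.4%, 22.4 to 44.2%). All intervals here cover counting error only, and because sRNAs of 1 hairpin overlap each other they are not independent draws. Counted as 23, 24 and 25 nt, there were 14, 12 and 7 in Ah04mir1887, 14, 15 and 7 in Ah20mirS3, and 11, 9 and 2 in Ah20mirS2. Whether the 3 codes of a precursor stand for its 3 fractions is not stated in the sources used here. Each fraction had 1 library and the codes were not treated as replicates, so no test across samples was run and no p-value is given.

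Over all codes together, a 5' U was the most frequent first base of the long sRNAs in each precursor, and its share ranged from 33.3% to 59.1%. This order turned when a code was left out, since without AVBR-14 A reached 31.3% and U 25% in Ah04mir1887, and without AVBR-8 A reached 33.3% and U 29.6% in Ah20mirS3. Among the long sRNAs of Ah04mir1887 under at least 2 codes, A made up 50% and U 30%. In Ah04mir1887, 11 of 33 long sRNAs began with U (33.3%, 19.8 to 50.4%), 8 with A (24.2%, 12.8 to 41.0%), 8 with C and 6 with G. In Ah20mirS3, 13 of 36 began with U (36.1%, 22.5 to 52.4%), 9 with A (25%, 13.8 to 41.1%), 9 with C and 5 with G. In Ah20mirS2, 13 of 22 began with U (59.1%, 38.7 to 76.7%), 7 with A (31.8%, 16.4 to 52.7%), and 1 each with C and G. The intervals of the U shares overlapped between all 3 precursors. For reference, the covered bases of the precursors were 36.8%, 37.1% and 36.3% T and 35.9%, 35.0% and 33.1% A, in the same order.

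Compared with the shorter sRNAs, the long sRNAs of Ah20mirS3 began with U less often. The share was 36.1% against 61.6% of 73 shorter sRNAs, a difference of -25.5 percentage points (Newcombe interval -42.6 to -5.59). The difference had the same direction in both arms, 5 of 17 long sRNAs (29.4%) against 17 of 30 shorter ones (56.7%) in the 5' arm, and 8 of 19 (42.1%) against 28 of 43 (65.1%) in the 3' arm. Without AVBR-8 it was -23.3 points (-44.1 to 1.55), and with each 5' end counted once it was -23.1 points (-44.1 to 2.15), so that the interval then included 0. Within single codes the difference was -6.85 points in AVBR-8 (10 of 16 long and 43 of 62 shorter sRNAs, interval -32.7 to 15.8), -4.48 points in AVBR-9 (4 of 21 and 4 of 17, -30.8 to 20.7) and -30.4 points in AVBR-15 (7 of 20 and 17 of 26, -53.1 to -1.42). The difference over all codes thus recurred at its full size in 1 code of the 3, and AVBR-8, the code with the most sRNAs and the highest share of 5' U among its shorter ones, also had the lowest share of long sRNAs.

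In Ah04mir1887 the difference in the share of 5' U was -5.38 points (-23.8 to 15.0) and in Ah20mirS2 it was 0.395 points (-23.8 to 23.1), so that both intervals also reach differences of over 20 points. Within the codes of Ah04mir1887 it was 16.0, -10.8 and -7.41 points in AVBR-5, AVBR-6 and AVBR-14, with intervals that included 0. Whether the difference itself varied between precursors was not tested.

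A 5' A was found in 12.7 percentage points more of the long than of the shorter sRNAs in Ah20mirS3 (interval -2.03 to 29.7), in 10.1 points more in Ah20mirS2 (-10.7 to 33.0), and the difference was -4.79 points in Ah04mir1887 (-21.5 to 14.6). All 3 intervals included 0. Among sRNAs of exactly 24 nt, A was the first base of 4 of 12 in Ah04mir1887, 5 of 15 in Ah20mirS3 and 4 of 9 in Ah20mirS2, and U of 3, 5 and 4. In Ah04mir1887, 6 of 13 long sRNAs of the 5' arm and 2 of 20 of the 3' arm began with A, and 4 and 7 of them with U. Arms were set here by the midpoint of the sRNA, as described below, and these counts were not repeated under another rule. In Ah20mirS2, 10 of 13 of the 5' arm (76.9%) and 3 of 9 of the 3' arm began with U, and 2 and 5 of them with A.

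The long sRNAs came from both arms of each hairpin. The side of its midpoint decided the arm of an sRNA, relative to the terminal loop of the structure that RNAfold predicted for the precursor. In Ah04mir1887, the 5' arm held 13 long sRNAs and the 3' arm 20. With the arm set by the 5' end of the sRNA these were 18 and 15, and by its 3' end 11 and 22. Which arm of Ah04mir1887 held more long sRNAs thus depended on the rule. By midpoint the numbers were 17 and 19 in Ah20mirS3 and 13 and 9 in Ah20mirS2, and setting the arm by either end left them unchanged. The share on the 5' arm was 39.4%, 47.2% and 59.1%, and its difference from the share among shorter sRNAs, at -7.38, 6.13 and 4.74 percentage points, had an interval that included 0 in each precursor. The long sRNAs covered 105 of the 117 covered nt of Ah04mir1887 (89.7%), 112 of 140 nt of Ah20mirS3 (80.0%) and 109 of 124 nt of Ah20mirS2 (87.9%).

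The bases lying in the most long sRNAs were on the 3' arm in Ah04mir1887 and Ah20mirS3 and on the 5' arm in Ah20mirS2. In Ah04mir1887, positions 83 to 87, on the 3' arm, lay in 20 of the 33 long sRNAs, and in Ah20mirS3 positions 121 to 128, also on the 3' arm, lay in 19 of 36. In Ah20mirS2 the highest number was 13 of 22, at positions 34 to 38 of the 5' arm. In the predicted fold a median of 21 bases of a long Ah04mir1887 sRNA were paired (range 12 to 23), 20 in Ah20mirS3 (12 to 22) and 19.5 in Ah20mirS2 (7 to 22). As a percentage of the length, the median was 87.0%, 87.0% and 82.6%, against 86.4%, 85.7% and 81.0% for the shorter sRNAs.

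Long sRNAs reached into the terminal loop more often than shorter ones in Ah04mir1887 and Ah20mirS2. A longer sRNA has more bases that can touch the loop, and the part of length in these counts was not tested. In Ah04mir1887, whose loop is 5 nt long at positions 68 to 72, 15 of 33 long sRNAs held at least 1 loop base against 13 of 62 shorter ones, a difference of 24.5 percentage points (4.99 to 43.0). Without AVBR-6 this was 16.4 points (-4.26 to 36.8), and among sRNAs under at least 2 codes it was 5.19 points (-17.6 to 37.4). In this precursor 4 long sRNAs and 0 shorter ones held the entire loop with bases on both sides. In Ah20mirS2, 8 of 22 long and 1 of 46 shorter sRNAs held a loop base, a difference of 34.2 points (15.2 to 55.0), which ranged from 34.5 to 44.5 points when each code was left out in turn. In Ah20mirS3 the numbers were 3 of 36 and 2 of 73 (5.59 points, -3.06 to 19.2), but its loop and that of Ah20mirS2 include the uncovered bases, so their extent was not determined.

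Most long sRNAs began at a base where a shorter sRNA also began. The 5' end was shared with an sRNA of 22 nt or less for 22 of 33 long sRNAs in Ah04mir1887 (66.7%, 49.6 to 80.2%), 31 of 36 in Ah20mirS3 (86.1%, 71.3 to 93.9%) and 15 of 22 in Ah20mirS2 (68.2%, 47.3 to 83.6%), which makes 68 of all 91. Allowing a distance of 1 nt raised these numbers to 27, 33 and 20. In Ah20mirS3, all 19 long sRNAs of the 3' arm and 12 of 17 of the 5' arm shared their 5' end. Without AVBR-8, 66.7% of the remaining long sRNAs of Ah20mirS3 did.

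Counted by starting base rather than by sRNA, 13 of the 22 long 5' ends of Ah04mir1887 were also among the 28 short ones, which is 59.1% of the long and 46.4% of the short ends. In Ah20mirS3, 19 5' ends were in both sets, 79.2% of 24 long and 48.7% of 39 short ends. In Ah20mirS2, 9 were in both, 56.3% of 16 long and 32.1% of 28 short ends. Thus 9, 5 and 7 bases were starting points of long sRNAs only. Most long 5' ends carried a single long sRNA, 15, 15 and 12 of them, but 4 ends in Ah04mir1887, 3 in Ah20mirS3 and 2 in Ah20mirS2 carried sRNAs of 23, 24 and 25 nt.

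At a few bases the long sRNAs were the upper part of an unbroken series of lengths. At positions 13531 and 13560 of Ah04mir1887, sRNAs of every length from 18 to 25 nt were listed, and at 10320 of Ah20mirS3 likewise. At 10321 of Ah20mirS3 the series ran from 18 to 24 nt. The first bases of the complete series were A at 13531, U at 13560 and C at 10320. In Ah20mirS2 the fullest series, at 2292, ran from 19 to 25 nt and began with U.

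The 3' ends were shared with shorter sRNAs by 22 of 33 long sRNAs in Ah04mir1887 (66.7%), 26 of 36 in Ah20mirS3 (72.2%, 56.0 to 84.2%) and 8 of 22 in Ah20mirS2 (36.4%, 19.7 to 57.0%). Both ends were shared, with the same or with different shorter sRNAs, by 15, 21 and 4 long sRNAs, and neither end by 4, 0 and 3. The 5' end alone was shared by 7, 10 and 11, and the 3' end alone by 7, 5 and 4. A listed sRNA of 22 nt or less lay wholly within 29 of 33, 36 of 36 and 19 of 22 long sRNAs.

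In Ah04mir1887 and Ah20mirS2, all long sRNAs that did not share a 5' end (11 and 7) were listed under 1 code. Among all long sRNAs of these precursors, 23 of 33 and 12 of 22 were. In Ah20mirS3, 2 of the 5 that did not share a 5' end were listed under at least 2 codes. In Ah04mir1887, all 10 long sRNAs listed under at least 2 codes shared their 5' end with a shorter sRNA, as against 12 of the 23 listed under 1 code. In Ah20mirS2 the numbers were 10 of 10 and 5 of 12, and in Ah20mirS3 14 of 16 and 17 of 20. An abundant starting point is more likely to be listed with several lengths and under several codes, and the part of abundance in these numbers was not tested.

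Over all 91 long sRNAs, 55 were listed under 1 code, 25 under 2 and 11 under all 3. At least 2 codes listed 10 of 33 long sRNAs of Ah04mir1887 (30.3%, 17.4 to 47.3%), 16 of 36 of Ah20mirS3 (44.4%, 29.5 to 60.4%) and 10 of 22 of Ah20mirS2 (45.5%, 26.9 to 65.3%). For the shorter sRNAs the shares were 43.5%, 34.2% and 21.7%. The difference was -13.2 percentage points (-31.1 to 7.37) in Ah04mir1887, 10.2 points (-8.58 to 29.0) in Ah20mirS3 and 23.7 points (0.587 to 45.7) in Ah20mirS2. The Ah20mirS2 difference was 1.05 points (-18.3 to 25.3) without AVBR-3 and 10.7 points (-8.99 to 35.5) without AVBR-13. Leaving out AVBR-6 took that of Ah04mir1887 to -24.3 points (-39.4 to -4.55), and leaving out AVBR-8 took that of Ah20mirS3 to 25.4 points (0.962 to 46.4). Without AVBR-9 the Ah20mirS3 difference was -5.27 points (-22.0 to 15.0), which is the one change of direction when each code was left out in turn.

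The share of long sRNAs differed between the codes of a precursor. In Ah04mir1887, 5 of the 30 sRNAs of AVBR-5 were long (16.7%, 7.34 to 33.6%), 14 of the 45 of AVBR-6 (31.1%, 19.5 to 45.7%) and 27 of the 72 of AVBR-14 (37.5%, 27.2 to 49.0%). AVBR-14 was alone in listing 17 of its long sRNAs, AVBR-6 in listing 4 and AVBR-5 in listing 2. The 3 intervals overlapped. Without AVBR-14, 16 long sRNAs of Ah04mir1887 would remain, of which the 5' arm would hold 5 and the 3' arm 11.

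In Ah20mirS3, 16 of the 78 sRNAs of AVBR-8 were long (20.5%, 13.0 to 30.8%), 21 of the 38 of AVBR-9 (55.3%, 39.7 to 69.9%) and 20 of the 46 of AVBR-15 (43.5%, 30.2 to 57.8%). The interval of AVBR-8 overlapped that of AVBR-15 and not that of AVBR-9. AVBR-8 thus listed the most sRNAs of this precursor and the fewest long ones. All 16 of its long sRNAs shared their 5' end with a shorter sRNA of the same code, against 15 of 21 for AVBR-9 and 8 of 20 for AVBR-15. AVBR-8 also listed the most shorter sRNAs, 62 against 17 in AVBR-9 and 26 in AVBR-15. The part of this in the shared 5' ends was not tested.

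In Ah20mirS2, 9 of the 42 sRNAs of AVBR-2 were long (21.4%, 11.7 to 35.9%), 12 of the 23 of AVBR-3 (52.2%, 33.0 to 70.8%) and 14 of the 29 of AVBR-13 (48.3%, 31.4 to 65.6%), with overlapping intervals. A 5' end shared within the code was found for 6 of 9, 7 of 12 and 4 of 14 long sRNAs. In Ah04mir1887 these numbers were 4 of 5, 10 of 14 and 19 of 27 for AVBR-5, AVBR-6 and AVBR-14.

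The first bases of the long sRNAs also differed between codes. The 5 long sRNAs of AVBR-5 comprised 4 with U, 1 with C and 0 with A. AVBR-6 had 5 with A, 3 with C, 3 with G and 3 with U, and AVBR-14 had 8, 6, 3 and 10. Of the 16 long Ah20mirS3 sRNAs of AVBR-8, 10 began with U, 5 with C, 1 with G and 0 with A. AVBR-9 had 7 with A, 5 with C, 5 with G and 4 with U, and AVBR-15 had 7, 3, 3 and 7.

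All 9 long Ah20mirS2 sRNAs of AVBR-2 began with U, whereas AVBR-3 had 4 with A, 1 with C and 7 with U, and AVBR-13 had 5 with A, 1 with G and 8 with U. In each precursor 1 code, AVBR-5, AVBR-8 or AVBR-2, therefore listed no long sRNA with a 5' A and was also the code with the lowest share of long sRNAs. The upper bounds of the Wilson intervals of these shares of 0 were 43.4%, 19.4% and 29.9%. A 5' A was also infrequent among the shorter sRNAs of AVBR-5, AVBR-8 and AVBR-2, at 4 of 25, 2 of 62 and 5 of 33. The difference in 5' A between long and shorter sRNAs within these codes was -16.0, -3.23 and -15.2 percentage points, with intervals that included 0. Within AVBR-2 the share of 5' U was 36.4 percentage points higher among the long than among the shorter sRNAs (9 of 9 and 21 of 33, interval 3.26 to 53.4), while in AVBR-3 the difference was -5.30 points (-39.1 to 30.7) and in AVBR-13 10.5 points (-23.3 to 41.1). Among the shorter sRNAs, those codes had 64.0%, 69.4% and 63.6% with a 5' U, against 32.3% in AVBR-6, 44.4% in AVBR-14, 23.5% in AVBR-9, 65.4% in AVBR-15, 63.6% in AVBR-3 and 46.7% in AVBR-13. What fraction or depth stands behind a code is not known here, and the part of either in these values was not tested.

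The codes also differed in which long sRNAs they shared. AVBR-9 and AVBR-15 shared 14 long sRNAs of Ah20mirS3, 66.7% of those of AVBR-9 and 70.0% of those of AVBR-15, while AVBR-8 shared 5 with AVBR-9 (31.3% of its own) and 7 with AVBR-15 (43.8%). In Ah04mir1887, AVBR-6 and AVBR-14 shared 10, 71.4% and 37.0% of theirs, and AVBR-5 shared 3 with each of them (60% of its own 5). In Ah20mirS2, AVBR-3 and AVBR-13 shared 8, 66.7% and 57.1% of theirs, and AVBR-2 shared 4 with each (44.4% of its own). Of the shorter sRNAs, AVBR-8 shared 10 with AVBR-9 and 20 with AVBR-15, whereas AVBR-9 and AVBR-15 shared 9. AVBR-5 shared 13 shorter ones with AVBR-6 (52% of its own) and 18 with AVBR-14 (72%), and AVBR-6 and AVBR-14 shared 20. AVBR-2 shared 5 with AVBR-3 and 8 with AVBR-13, and AVBR-3 and AVBR-13 shared 3.

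Part of the Ah04mir1887 set has a counterpart in the A. thaliana reference genome. On both strands of TAIR10.1, 16 of the 33 long sRNAs matched exactly (48.5%, 32.5 to 64.8%), 10 more matched with 1 mismatch and 7 did not match at this limit. Of the 62 shorter sRNAs, 42 matched exactly (67.7%) and 12 with 1 mismatch. Every long match lay at a single locus on the plus strand of chromosome 4, overlapping the microRNA gene MIR1887 (AT4G07005), annotated from 11370263 to 11370325.

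The 10 long sRNAs with a mismatch all held the same substitution, T95A, where the first letter is the base of the precursor, the number its position counted from 1 at the precursor's 5' end, and the last letter the genome base. They include the 3 sRNAs from 13560 that were listed under all 3 codes, whereas the 3 from 13531 matched exactly, with the 25-nt sRNA at 11370269 to 11370293. By sequence, an exact match cannot be told apart from an sRNA made at the A. thaliana locus, and whether C24 carries this stretch, or whether it lay in the S-locus that was masked for mapping, was not examined. Only reads mapping to the S-locus alone were kept, so that masking bears on whether reads from this locus could be listed. No long sRNA of Ah20mirS3 (0 of 36) or Ah20mirS2 (0 of 22) matched the reference with up to 1 mismatch. Of the shorter sRNAs, 7 of 73 in Ah20mirS3 matched with 1 mismatch, and 0 of 46 in Ah20mirS2 matched. Because reads that also mapped to the unmasked reference were not kept, that filter limits these numbers in advance. They therefore cannot be read as a difference between the precursors.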

How the data were processed

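The series holds sRNA libraries from immature floral buds of 3 transgenic A. thaliana lines (input, AGO1-IP and AGO4-IP, 1 library each, 9 in all). The listed sRNAs were analysed, and their codes are not tied to these libraries. According to their methods, the authors used TrimGalore for trimming and ShortStack, at up to 1 mismatch, for mapping to the A. halleri S-allele together with TAIR10 whose own S-locus was masked, and retained reads that mapped to the S-locus alone. The submitters' processing notes also name FastQC and Bowtie. Versions are not given in the sources used here. Each deposited table gives sequences, library codes, and lengths and positions in nt, without counts, so depth is unknown. Of the 95 lines deposited for Ah20mirS2, 1 was a repeat and was dropped. Starts were taken as counted from 0, as BED files do, and are printed counted from 1. Precursors were rebuilt from overlapping sRNAs and folded with RNAfold (ViennaRNA 2.7.2), uncovered bases being unknown. The terminal loop was the one enclosed by the most base pairs. Shares carry 95% Wilson intervals and differences Newcombe intervals. The sRNAs were searched in the RefSeq copy of TAIR10.1 (Python 3.11.15, pandas 2.3.3, numpy 2.4.6). The scripts were checked on simulated data.

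The sRNAs named were those listed under all 3 codes, those from the 5' end carrying the most long sRNAs (the first by position where tied), and up to 4 per precursor whose 5' end lay more than 1 nt from that of every shorter sRNA, the farthest first. The members, this rule and the comparisons were chosen with earlier results of these data known. Alternatives were 24-nt sRNAs only, sRNAs under at least 2 codes only, arms by either end, ends matched within 1 nt, shorter sRNAs of 20 to 22 nt only, each 5' end or each listing counted, sequence alone as identity, and each code left out. For the differences between long and shorter sRNAs, leaving out a code, keeping sRNAs under at least 2 codes and counting each 5' end once were added after seeing the data. Of the deposited files nothing else was left out.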

Additional observations from a re-analysis of the deposited data

How the results depend on the processing

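No paired analysis was possible because the labels give no replicate numbers and the codes are not tied to fractions, but the differences in 5' U within each of the 9 codes are given above. Keeping the 24-nt sRNAs only left 12, 15 and 9 long sRNAs in Ah04mir1887, Ah20mirS3 and Ah20mirS2, with 5, 5 and 4 on the 5' arm and 7, 10 and 5 on the 3' arm, since fewer sRNAs enter. Keeping only sRNAs under at least 2 codes, in the long and the shorter set alike, left 10, 16 and 10, with 3, 9 and 8 on the 5' arm and 7, 7 and 2 on the 3' arm. Among these, 50% of Ah04mir1887 began with A and 80% of Ah20mirS2 with U, 50% of Ah20mirS3 shared a 5' end and 43.8% a 3' end with a shorter sRNA that was itself under at least 2 codes, and 0% of Ah20mirS2 shared a 3' end with one. The Ah04mir1887 difference between long and shorter sRNAs then was -29.3 percentage points for U, 31.5 for A, a change of direction with intervals that included 0, and 5.19 for the loop, no longer excluding 0, and that of Ah20mirS2 for the loop was 70 points. The causes of these shifts were not tested. Counting each 5' end once gave -23.1 points for U in Ah20mirS3. Allowing ends 1 nt apart raised the shared 5' ends to 81.8% in Ah04mir1887 and 90.9% in Ah20mirS2, and the shared 3' ends to 84.8% in Ah04mir1887 and 91.7% in Ah20mirS3, by construction.

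Leaving out each code in turn gave ranges of 16 to 31, 27 to 32 and 17 to 19 long sRNAs for Ah04mir1887, Ah20mirS3 and Ah20mirS2, with 5 to 12, 13 to 15 and 11 to 12 on the 5' arm and 11 to 19, 12 to 19 and 6 to 8 on the 3' arm. The share with A ranged from 25.8 to 31.3%, 21.9 to 33.3% and 23.5 to 38.9%, and that with U from 25 to 37.9%, 29.6 to 41.4% and 50 to 70.6%. The share under at least 2 codes ranged from 10.3 to 32.3%, 15.6 to 51.9% and 21.1 to 44.4%, the lowest being without AVBR-6, AVBR-15 and AVBR-3. It was also 24.1% without AVBR-9 and 23.5% without AVBR-13. Shared 5' ends ranged from 64.5 to 75%, 66.7 to 93.8% and 61.1 to 68.4%, and shared 3' ends from 56.3 to 67.7%, 51.9 to 69.0% and 23.5 to 33.3%. The lowest numbers of Ah04mir1887 were without AVBR-14, and the lowest shared ends of Ah20mirS3 without AVBR-8. The differences in points ranged from -19.2 to -5.24, -29.4 to -23.3 and -2.17 to 9.05 for U, from -4.55 to 10.3, 11.7 to 15.3 and 3.02 to 8.82 for A, from -24.3 to -3.46, -5.27 to 25.4 and 1.05 to 31.4 for at least 2 codes, and from 16.4 to 25.2, 3.96 to 7.93 and 34.5 to 44.5 for the loop. The A difference of Ah20mirS3 excluded 0 without AVBR-9, at 15.3 points. Other values that turned were the A difference of Ah20mirS2 among sRNAs under at least 2 codes (-10 points), that of Ah04mir1887 without AVBR-14 (10.3), the U difference of Ah20mirS2 without AVBR-2 (-2.17) and the Ah20mirS3 difference for at least 2 codes without AVBR-9 (-5.27), each with an interval that included 0. Abundance and depth, which decide what is listed, could not be examined.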

Other observations

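Long sRNAs of opposite arms were also compared with the predicted fold, in which Dicer-like products are known to leave 3' overhangs of 2 nt. Only sRNAs whose 5' base was paired were used, and equal overhangs at both ends were required. Pairs of long sRNAs whose 3' ends overhung by 2 nt at both ends numbered 6 in Ah04mir1887, 4 in Ah20mirS3 and 1 in Ah20mirS2. Sizes from -4 to 6 nt were counted, negative where the 3' end is recessed. In Ah04mir1887 there were 2, 4, 6, 6, 4, 2 and 1 pairs from 0 to 6 nt and 0 below. In Ah20mirS3 there were 4, 3, 1 and 2 pairs from -4 to -1 nt, and 2, 2, 4, 4, 1, 2 and 3 from 0 to 6 nt. In Ah20mirS2 there were 1, 1, 1, 2, 2, 2 and 2 pairs from 0 to 6 nt and 0 below, so that 2 nt was not the most frequent size there, and in Ah04mir1887 and Ah20mirS3 it tied with other sizes. The pair of 24-nt sRNAs of Ah04mir1887 with 2 nt at both ends is shown, since its 3' arm member was listed under all 3 codes and its 5' arm member under AVBR-6 and AVBR-14.
Ah04mir1887, positions 45 to 68: acttagattgttcttagtatgagg
Ah04mir1887, positions 74 to 97: tcgtactaagtagagtctaagtga
The counts are of listed sRNAs without regard to abundance, and no preference for an overhang was tested.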
